A study of Neurospora crassa OR74A and Aspergillus nidulans FGSC A4 with 22 samples.

Results

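Expression of 10 regulators of asexual sporulation (conidiation) in *Aspergillus nidulans* was followed in hyphae shifted to cellulose or to starvation. The genes were taken by locus number and not by a limit on any measured value, though with earlier results of these data known. All 10 were found among the 10596 genes of the *A. nidulans* table, of 20178 genes in the tables of both species of the series. They were *brlA* (AN0973), *abaA* (AN0422), *wetA* (AN1937), *fluG* (AN4819), *flbA* (AN5893), *flbB* (AN7542), *flbC* (AN2421), *flbD* (AN0279), *stuA* (AN5836) and *medA* (AN6230). Wild-type *A. nidulans* FGSC A4 was grown from conidia for 16 h in liquid medium with 1% glucose at 37°C, in constant light with shaking at 200 rpm. The mycelium was washed and moved for 6 h to the same medium with 2% Avicel, a microcrystalline cellulose, or to medium with no carbon source. Each of these groups had 3 libraries from biological triplicate cultures. Both groups thus share the strain, the light, the submerged growth and the removal of glucose, and differ in the presence of cellulose. No culture sampled before the shift was analysed here, so a level on Avicel is set only against starvation.

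In *A. nidulans*, conidia are formed on stalks called conidiophores, normally on surfaces exposed to air, whereas submerged hyphae stay vegetative unless they are stressed, for example by loss of nutrients. Entry into the programme depends on the fluffy genes, *fluG* and *flbA* to *flbD*, which lead to expression of *brlA*. BrlA then turns on *abaA*, and AbaA turns on *wetA*, so that these genes act in sequence as the stalk, the sporogenous cells and the maturing spores are built. StuA and MedA modify where and when the central genes are expressed.

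The table gives 1 value per gene and medium, the authors' mean over the libraries of the group, in reads normalized by DESeq's size factors (normalized read counts), and no value per library. They are not scaled for gene length, so levels were compared only within a gene, between media. A log2 fold of Avicel over no carbon was taken from both means, and a gene was counted as differing when the means were at least 2-fold apart. This count is not a test. Genes whose group means averaged under 10 were left out, which kept 9719 genes and all 10 regulators. Whole reads of single libraries could be worked back from low means, because a read of a given library always adds the same amount to a mean. This gave size factors of 0.807 to 1.09 for the 6 libraries, or an estimated 37.7 to 48.3 M counted reads each, and reads per library in both groups for *wetA* alone among the regulators. The libraries are numbered 1 to 3 within a group by falling size factor and are not tied to the replicate numbers of the submitters.

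The 3 genes of the central cascade all had a lower mean on Avicel than on no carbon, and the upstream and modifying genes had folds of both signs. The central genes had log2 folds with a median of -0.79, against -0.03 over the 9719 genes. Among the 5 upstream activators the log2 folds ran between -0.49 and 0.26 (median 0.05), and the modifiers had 0.40 and -0.06. At the 2-fold limit, 1 of the 10 regulators, *wetA*, was lower on Avicel, where 3.42% of all genes were, and 0 were higher, where 9.38% of all genes were. At a limit of 1.5-fold, 3 were lower, against 12.1% of all genes, and these were *brlA*, *abaA* and *wetA*. At that limit 0 were higher, against 17.9% of all genes. In bulk RNA, fewer cells that express a gene and less RNA of that gene per cell cannot be told apart.

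**Figure D1:**
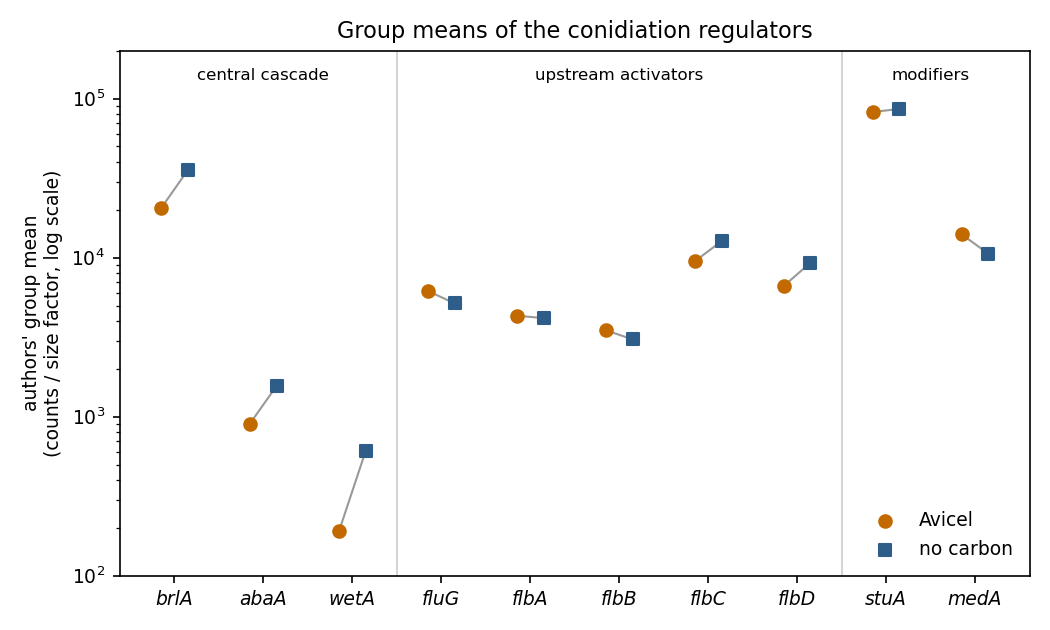
Authors' group means (counts divided by size factor, log scale) of the 10 regulators on Avicel (circles) and on no carbon (squares), ordered by role. The lines of *brlA*, *abaA* and *wetA* climb toward no carbon, by 1.73-, 1.73- and 3.19-fold, and no error bars are drawn because the table holds group means only.

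To set an error beside these folds, the spread between libraries was taken from other genes whose reads could be recovered. Over 1365 genes with recovered reads and a mean of at least 100 in both groups, the standard error of the log2 fold over 3 libraries per group had a median of 0.211 and a 90th percentile of 0.437. These genes have lower means than most of the regulators, so the values serve as a guide and not as a test of any regulator.

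*brlA* encodes the zinc finger transcription factor that commits hyphae to conidiophore formation. Its authors' mean was 20439 on Avicel and 35451 on no carbon, so that the transcript was counted in large numbers in both media. The log2 fold was -0.79, a no carbon mean 1.73 times that on Avicel. Of the 9719 genes, 6.37% had a lower log2 fold. The difference was 3.76 times the standard error of a gene with median spread, but 1.82 times that of a gene at the 90th percentile of spread. The table has a single row for the locus, so the overlapping transcripts of *brlA* cannot be separated.

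*abaA* encodes the transcription factor that acts after BrlA in the sporogenous cells (phialides). Its authors' mean was 905 on Avicel and 1564 on no carbon, a log2 fold of -0.79. The log2 fold of *brlA* minus that of *abaA* was -0.005, far less in size than the guide errors. Single libraries could not be resolved for *abaA*. Its Avicel mean is met by 2 combinations of reads and its no carbon mean by 39. In 1 of the Avicel combinations the normalized read counts were 703, 1215 and 798 in libraries 1 to 3, and in the other they were 1556, 410.3 and 749.7. The SD of log2 over the Avicel libraries was thus 0.414 or 0.963, above that of 85.7% or 98.1% of the genes with recovered reads on Avicel, whose median was 0.194. Over the 78 pairs of an Avicel and a no carbon combination, the standard error of the log2 fold ran between 0.240 and 2.14, above the median of the guide in every pair and above its 90th percentile in 72. In 2 of the 78 pairs every Avicel library lay below every no carbon library. A single pair holds the true reads, and which one is not known. The pairs need not be equally likely, so these counts of pairs do not measure how far *abaA* varied. What holds in every pair is a standard error of at least 0.240.

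Among the genes with recovered reads and a mean of at least 100 in both groups, 225 had a log2 fold between 0.6 and 1.0 in size, in either direction. In 180 of these, or 80.0%, the 3 Avicel libraries lay wholly on one side of the 3 no carbon libraries. In the other genes of that range the groups overlapped. The share describes those genes, not *brlA* or *abaA*, whose own libraries were not resolved.

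**Figure D2:**
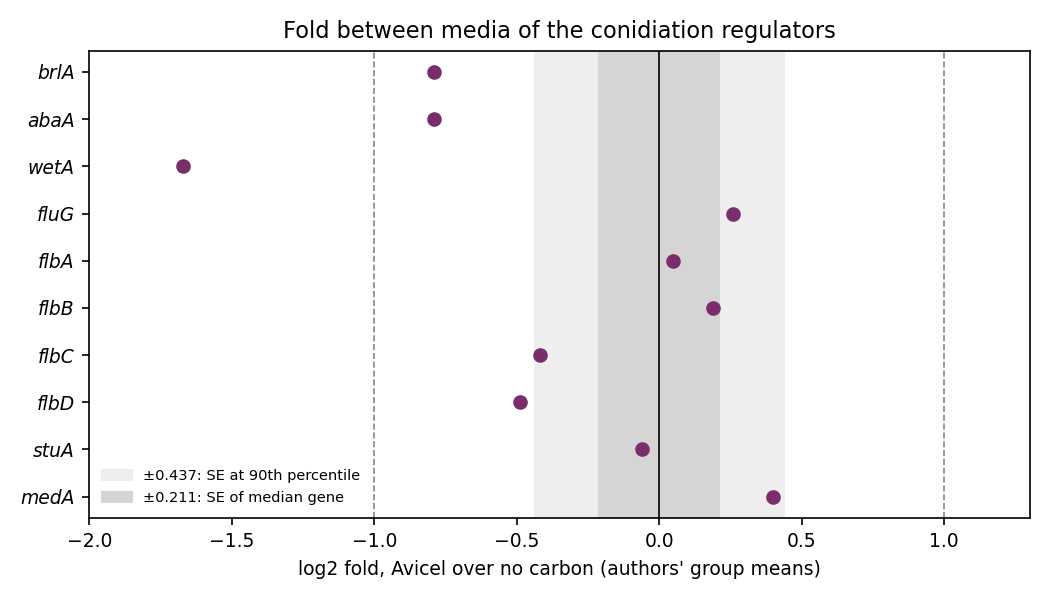
Log2 fold of Avicel over no carbon from the authors' group means for each regulator (points), with the 2-fold limit as dashed lines and bands for the standard error of a gene with median spread (dark, 0.211) and at the 90th percentile of spread (light, 0.437). The central genes *brlA*, *abaA* and *wetA* and the activator *flbD* lie to the left of both bands, and the other 6 regulators lie within the light band.

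*wetA*, which is needed for the walls of conidia to mature, had the largest fold of the 10 regulators. Its normalized read counts were 124, 307 and 140 in Avicel libraries 1, 2 and 3, and 1160, 371 and 293 in no carbon libraries 1, 2 and 3. The groups overlapped, since Avicel library 2 lay above no carbon library 3, and no carbon library 1 stood 3.13 times above the next. The mean was 190 ± 102 on Avicel and 608 ± 480 on no carbon (SD, n = 3 each), a log2 fold of -1.67, and 0.309% of the 9719 genes had a lower one. Of the 9 pairs of an Avicel and a no carbon library, 8 had the lower value on Avicel. An exact two-sided permutation test over the 6 libraries gave p = 0.2, where 0.1 is the smallest value that 3 against 3 allows. For comparison, 12.3% of 2723 genes with recovered reads in both groups had every Avicel library below every no carbon library.

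The size of the *wetA* fold rests on no carbon library 1, which held 63.6% of the normalized reads of its group. Without it the no carbon mean was 332 and the log2 fold of *wetA* was -0.80, which no longer reached the 2-fold limit. Of all genes, 6.21% had a lower log2 fold, but their folds keep that library. So do those of *brlA* and *abaA*, and how far they would move without it is not known. Leaving out Avicel library 2 moved the log2 fold the other way, to -2.20. The direction was the same without any single library. *wetA* had 128, 316 and 113 reads in the Avicel libraries, against 1261, 386 and 303 in the no carbon libraries.

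**Figure D3:**
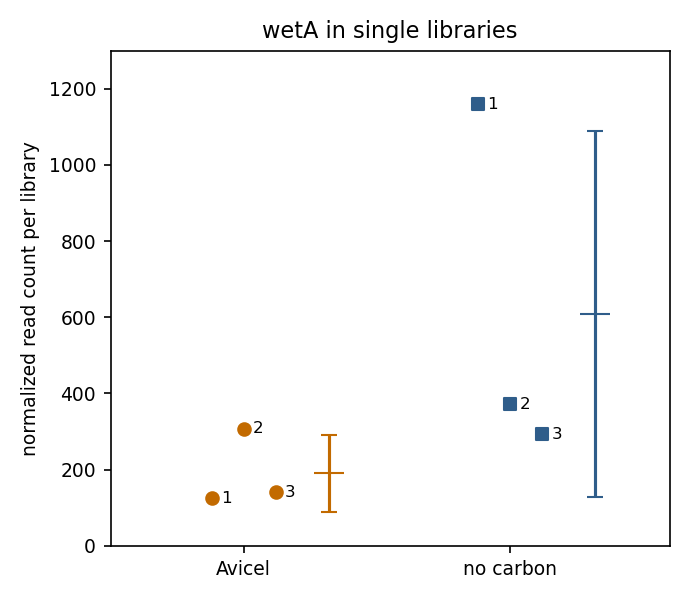
Normalized read count of *wetA* in each library (points, numbered by falling size factor), with the mean and SD of the 3 libraries of a group (bars to the right). Avicel libraries lie at 124, 307 and 140, and no carbon library 1 lies at 1160, far above the other no carbon libraries at 371 and 293, which are close to the highest Avicel library.

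The spread of *wetA* between cultures was large in both media. On the log2 scale its SD was 0.712 on Avicel and 1.06 on no carbon, against medians of 0.194 over 2356 genes on Avicel and 0.286 over 1684 genes on no carbon. In Avicel cultures 95.7% and in no carbon cultures 97.0% of those genes varied less. On its own spread, the mean difference in log2 was -1.52 with a standard error of 0.738, over 3 times the median standard error of the guide. How far *brlA* varied between cultures could not be measured.

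**Figure D4:**
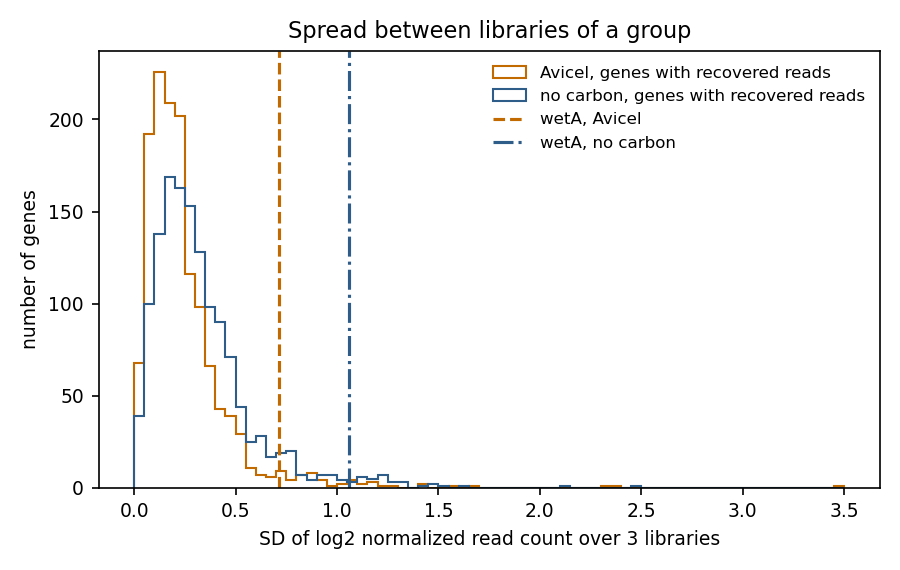
SD of the log2 normalized read count over 3 libraries, on Avicel and on no carbon, for 1365 genes with recovered reads and a mean of at least 100 in both groups (outlines), with *wetA* as vertical lines at 0.712 (Avicel) and 1.06 (no carbon). Both lines lie in the right tail of their group.

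The libraries that were high for *wetA* were high for a small set of other genes as well. In addition to *wetA*, 22 of 1683 genes (1.31%) had at least 3 times as many normalized reads in no carbon library 1 as in either of the other no carbon libraries. Reads on Avicel were recovered for 19 of these genes. In 18 of the 19, Avicel library 2 was the highest of its group, as for *wetA*, and in 17 (89.5%) it was at least 2 times both others. A background of 1457 genes of that range recovered in both groups left out *wetA* but included the 19. In it, Avicel library 2 was the highest in 33.2% and at least 2 times both others in 2.68%. The genes were picked by their no carbon libraries only, and the Avicel libraries played no part in the choice. The libraries carry no replicate numbers, so whether no carbon library 1 and Avicel library 2 belong to the same replicate is not known. All these genes were read in the same libraries, so they are not separate observations. In 16 of the 19 genes (84.2%) the group mean was lower on Avicel, as for *wetA*. Picking genes by a high no carbon library favours a high no carbon mean, so that count is not a separate result. The sources used here describe 3 of the 22 genes, named after their values were seen. They are *stcL* (AN11013), which encodes a putative cytochrome P450 of sterigmatocystin synthesis, AN7932, also a putative cytochrome P450 gene, and AN11017, described by its orthologs only. They are not offered as examples of the shared Avicel pattern. For AN7932 the SD of log2 on Avicel was 0.153, under the median of 0.194, so Avicel library 2 was not 2 times both others. Whether *stcL* and AN11017 have that pattern is not given here.

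Among the upstream activators the folds were small and of both signs. *fluG*, needed for the extracellular signal that starts sporulation, had an authors' mean of 6171 on Avicel and 5155 on no carbon (log2 fold 0.26). *flbA* encodes a regulator of G-protein signalling that dampens the signal for vegetative growth, and its means of 4314 on Avicel and 4165 on no carbon were the most alike of the activators (log2 fold 0.05). The direction for *flbA* turned to -0.09 once both columns were scaled to the same total. *flbB*, which encodes a bZIP transcription factor, had means of 3494 on Avicel and 3061 on no carbon (log2 fold 0.19). These 3 genes lay within or near the standard error of a gene with median spread, at 1.23, 0.241 and 0.902 times that error.

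The remaining activators leaned the other way, like the central cascade but less far. *flbC*, a zinc finger gene, had an authors' mean of 9478 on Avicel and 12696 on no carbon (log2 fold -0.42). *flbD*, which encodes a Myb transcription factor that works with FlbB upstream of *brlA*, had 6634 on Avicel and 9298 on no carbon (log2 fold -0.49). Their folds stood at 1.99 and 2.30 times the standard error of a gene with median spread, and at 0.966 and 1.12 times that at the 90th percentile. Of all genes, 43.8% and 37.9% had a log2 fold larger in size than those of *flbC* and *flbD*, so neither stands apart from the bulk of the transcriptome.

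*stuA*, an APSES transcription factor gene needed for ordered conidiophore structure, had a mean of 82412 on Avicel and 86106 on no carbon. The log2 fold of -0.06 was among the smaller ones, as 90.3% of all genes had a larger size. *medA*, which affects the timing of *brlA* expression, had a mean of 14001 on Avicel and 10586 on no carbon. Its log2 fold of 0.40 was the highest of the 10 regulators, at 1.91 times the standard error of a gene with median spread, and 45.7% of all genes had a larger size. *medA* thus had the opposite sign to *brlA*, with log2 folds of 0.40 and -0.79.

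Scaling both columns to the same total would lower every log2 fold by 0.14, which places *brlA* at -0.94, *abaA* at -0.93 and *wetA* at -1.82. Over all genes it also changes the balance of the 2-fold counts, to 744 higher and 508 lower on Avicel (59.4% higher), against 912 and 332 (73.3% higher) as deposited.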

How the data were processed

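RNA-seq reads of 3 libraries per group were mapped by the authors to predicted transcripts with TopHat 2.0.4, tallied on unique exons with HTSeq and normalized with DESeq, whose versions are not given in the sources used here. What the authors deposited is thus a signal per gene and group, the mean over libraries of size-factor-normalized counts. Columns of the authors' own comparison, which hold fold changes and p-values, were not used, and neither was the overall mean. The test on counts per library that had been planned in case the table held them was not run, since the table holds group means. Of the 22 samples of the series, 12 stand behind the tables of both species and 6 behind the *A. nidulans* one, and the other 10 were not analysed here.

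A mean under 800 was solved for whole reads, and for the 10 regulators a mean under 2000. The means carry 10 significant digits, and size factors were fitted on 2811 Avicel and 2694 no carbon means under 400 so that every one was met within its rounding. A gene was used where exactly 1 combination gave the mean, which held for 98.4% of means under 800 on Avicel and 86.1% on no carbon. Log2 of reads was taken after adding 0.5 for the guide genes, but not for the values given for *wetA* and *abaA*. The steps were tested on simulated data. Python 3.11.15, numpy 2.4.6, pandas 2.3.3, scipy 1.17.1 and matplotlib 3.10.9 were used.

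All 10 regulators are named by rule. Members and gene lists were chosen with earlier results of these data known. No source used here pairs the identifiers of other *A. nidulans* genes of the pathway, or of markers of hyphae and conidia, with symbols, so these were not described and the labelled tissue (hyphae) was not checked. Sequences are not shown.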

Additional observations from a re-analysis of the deposited data

How the results depend on the processing

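The fold limit moved the counts most. At 1.5-fold, 3 regulators were lower on Avicel, with 1177 of all genes lower and 1742 higher, and at 4-fold, 0 regulators were lower, with 6 of all genes lower and 302 higher. Rescaling the means to equal sums gave 508 genes lower, while the count of regulators stayed at 1. With *wetA* taken over the other no carbon libraries, a setting chosen after its reads were seen, 0 regulators were at least 2-fold lower. That setting left out the highest library of 1 group only. Without Avicel library 2 the Avicel mean of *wetA* was 132, and without no carbon library 1 the no carbon mean was 332. These means are at least 2-fold apart. Leaving out 1 library at a time, the log2 fold of *wetA* lay between -2.20 (without Avicel library 2) and -0.80 (without no carbon library 1). Recentring on the median, pseudocounts of 1 and 10, and filters of none or at least 50 left the count of regulators at 1 lower and 0 higher. Recentring and the pseudocounts moved no regulator's log2 fold by more than 0.05. No paired analysis was possible because the deposited means and the recovered libraries carry no replicate numbers. For 9 of the 10 regulators the table gives no spread between libraries, which is the main limit.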

Other observations

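*N. crassa* counterparts of 3 of these regulators are known as background, *rca-1* for *flbD*, *Asm-1* for *stuA* and *acon-3* for *medA*, and the series measured them in the wild type of that species, at 25°C and 4 h into the new medium. The authors' mean of *acon-3* (NCU07617), a gene needed for conidiophore development, was 639 on Avicel and 1820.5 on no carbon, a log2 fold of -1.51, where *medA* had 0.40 in *A. nidulans*. For *Asm-1* (NCU01414) the means were 23954 on Avicel and 18556 on no carbon (log2 fold 0.37), and *stuA* had -0.06. For *rca-1* (NCU01312) they were 1869.6 on Avicel and 1744.3 on no carbon (log2 fold 0.10), and *flbD* had -0.49. The species differed in medium, time and temperature, and their tables were normalized separately. These values are therefore set side by side and were not compared. No spread between libraries and no share of all *N. crassa* genes was taken for these folds. How usual their size is in that species was not examined.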
